A study of Mus musculus with 24 samples.

Results

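The mitochondrial genome is represented in this study by 32 of 15456 genes in the table of normalized counts, taken as every gene whose symbol starts with mt-. By their annotated type these are 13 mRNAs, 2 rRNAs and 17 tRNAs. RNA was sequenced from the medial prefrontal cortex, labelled prefrontal and frontal cortex, of 24 male BALB/c OlaHsd mice at postnatal week 11, with 6 mice and 1 library per mouse in each group. Control mice received PBS according to the methods and carry the label of no treatment. The duloxetine group received duloxetine, which blocks the reuptake of serotonin and norepinephrine, at 10 mg per kg by daily intraperitoneal injection. The *R. flavefaciens* group received the live gut bacterium *Ruminococcus flavefaciens* by gavage, and the fourth group received both for at least 21 days. Reads recovered from the normalized counts numbered 12811413 to 15607343 per mouse, and their median was lower in control mice (13591497) and in mice given only the bacterium (13943370) than in those given duloxetine alone (14536037) or with the bacterium (14621655.5). All 8 markers listed for excitatory and all 8 for inhibitory neurons were in the table, with *Camk2a* at 51331 ± 2018 normalized counts (SD, n = 6) in the control. All 10 listed striatum markers were in the table too, so presence there does not set cortex apart from other brain regions.

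The mitochondrial genome is a small circle that is transcribed on both strands into long precursor RNAs by a polymerase encoded in the nucleus. Most of its mRNAs and rRNAs are separated by tRNAs, and cutting the tRNAs out frees the RNAs between them. The mRNAs encode core subunits of complexes I, III and IV and of ATP synthase, whose other subunits come from nuclear genes, and the rRNAs and tRNAs serve the translation of these mRNAs inside the organelle. Nearly all mature mitochondrial mRNAs carry short poly(A) tails, the rRNAs carry very short ones, and mature tRNAs carry none. The libraries were made from poly(A) RNA, so a count on a tRNA gene here is a count of reads over that stretch, from mature or uncut RNA, which these counts do not separate. The kit named in the methods does not mark the strand, and reads over genes that overlap or face each other cannot be told apart.

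The transfer RNAs that the results turn on are shown here, together with the one that had the highest count. They were read from the GENCODE vM21 transcripts, on GRCm38, from 5′ to 3′. Capitals mark the anticodon, found as loop bases 3 to 5 of a 7-base loop between arms of 5 bases with at least 4 pairs.
mt-Te, chrM:14071-14139, minus strand, for glutamate: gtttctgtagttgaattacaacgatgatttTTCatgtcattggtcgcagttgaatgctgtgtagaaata
mt-Tl1, chrM:2676-2750, plus strand, for leucine: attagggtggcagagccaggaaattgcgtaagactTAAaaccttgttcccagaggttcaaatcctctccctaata
mt-Ta, chrM:5018-5086, minus strand, for alanine: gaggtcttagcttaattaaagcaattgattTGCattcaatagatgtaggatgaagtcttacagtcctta
mt-Ts1, chrM:6870-6938, minus strand, for serine: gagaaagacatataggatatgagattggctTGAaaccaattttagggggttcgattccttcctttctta

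*mt-Te* directly adjoins *mt-Nd6*, which lies on the same strand at chrM:13552-14070, and lies close to *mt-Cytb* on the other strand at chrM:14145-15288. *mt-Tl1* fills the space between *mt-Rnr2* (chrM:1094-2675) and *mt-Nd1* (chrM:2751-3707). *mt-Ta* is the first of a run of minus-strand tRNAs with *mt-Tn*, *mt-Tc* and *mt-Ty* between *mt-Nd2* and *mt-Co1*, and *mt-Ts1* shares 3 bases with the end of *mt-Co1*. Of the annotated pairs, *mt-Atp8* and *mt-Atp6* share 43 bases, *mt-Nd5* and *mt-Nd6* share 14 on opposite strands and *mt-Nd4l* and *mt-Nd4* share 7, so the counts of these neighbours depend on how reads in the shared bases were assigned, which is not given in the sources used here.

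In the control cortex the 13 mRNAs held 3.74% ± 0.175 of all normalized counts (SD, n = 6), the rRNAs 0.543% ± 0.0188 and the tRNAs 0.0119% ± 0.000372. Over all mice the 5 most abundant genes of the table were all mitochondrial, namely *mt-Co1*, *mt-Co2*, *mt-Cytb*, *mt-Rnr2* and *mt-Co3*, and 11 of the 20 most abundant were. *mt-Co1*, the catalytic subunit of complex IV, alone made up 27.0% of the mRNA counts.

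Per kilobase of gene length, *mt-Co1* had the highest level of the mRNAs in the control, with a mean of 95127 normalized counts per kilobase. It was followed by the complex IV subunit *mt-Co2* at 76367, the ATP synthase subunit *mt-Atp6* at 71234, the complex IV subunit *mt-Co3* at 61817 and *mt-Cytb*, the only mitochondrially encoded subunit of complex III, at 45943. The complex I subunits *mt-Nd1* at 41432 and *mt-Nd4* at 35224 stood above the second ATP synthase subunit, *mt-Atp8*, at 33000. The other complex I subunits were lowest, *mt-Nd2* at 25526, *mt-Nd4l* at 22041, *mt-Nd6* at 21043, *mt-Nd5* at 20959 and *mt-Nd3* at 14637. Each gene stood above the next one in 6 of 6 control mice, except that *mt-Nd6* stood above *mt-Nd5* in 4 of 6, with a mean ratio of 1.00, so this pair did not differ beyond its spread. All 13 mRNAs kept their place in this order of group means in the duloxetine group, 9 did in the *R. flavefaciens* group and 11 in the combined group.

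Of 22 annotated tRNAs 17 were in the table, all 8 that lie on the minus strand and 9 of 14 on the plus strand. *mt-Tf*, *mt-Tv*, *mt-Tk*, *mt-Ts2* and *mt-Tt* were not among them. The control mean was highest for *mt-Ts1* (529 ± 29.5 normalized counts, SD, n = 6) and *mt-Te* (459 ± 27.4), followed by *mt-Tp* (160 ± 17), *mt-Tl1* (121 ± 13.8), *mt-Tc* (97.5 ± 11.7) and *mt-Tn* (60.4 ± 12.3). *mt-Ta* had 51.0 ± 7.44, *mt-Tm* 48.2 ± 9.03, *mt-Tg* 33.0 ± 4.64, *mt-Ty* 32.1 ± 4.26 and *mt-Tq* 31.2 ± 5.48. The lowest were *mt-Tr* (18.1 ± 3.18), *mt-Ti* (16.2 ± 4.25), *mt-Th* (13.2 ± 6.03), *mt-Tl2* (9.18 ± 2.04), *mt-Tw* (9.16 ± 2.64) and *mt-Td* (7.58 ± 3.71). The median was 78.9 for minus-strand tRNAs and 16.2 for plus-strand tRNAs. At such counts the precision is low for the last group, and *mt-Td*, whose mean over all mice was below the minimum of 10, was not tested.

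All classes took a larger mean share in each treated group than in the control. The mRNA share was 4.41% ± 0.510 with duloxetine, 4.19% ± 0.584 with *R. flavefaciens* and 4.81% ± 0.693 with both (SD, n = 6 each). It ran from 3.52% to 4.03% in the control, with a median of 3.72%. With duloxetine it ran from 3.95% to 5.22%, with a median of 4.28%, with *R. flavefaciens* from 3.59% to 5.23%, with a median of 3.98%, and with both from 3.94% to 5.76%, with a median of 4.68%. The ranges of the mRNA share in all treated groups overlapped that of the control, and the treated mice were spread more widely. The rRNA share was 0.618% ± 0.102 with duloxetine, 0.676% ± 0.126 with *R. flavefaciens* and 0.689% ± 0.0918 with both, and in the combined group all 6 mice lay above all controls. The tRNA share was 0.0148% ± 0.00169 with duloxetine, 0.0146% ± 0.00332 with *R. flavefaciens* and 0.0169% ± 0.00251 with both. It ran from 0.0116% to 0.0125% in the control, and all mice given duloxetine, alone (from 0.0129%) or with the bacterium (from 0.0138%), lay above all controls, while the *R. flavefaciens* group, from 0.0114% to 0.0205%, overlapped them. In bulk tissue, more cells with this RNA and more of it per cell cannot be told apart.

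**Figure D1:**
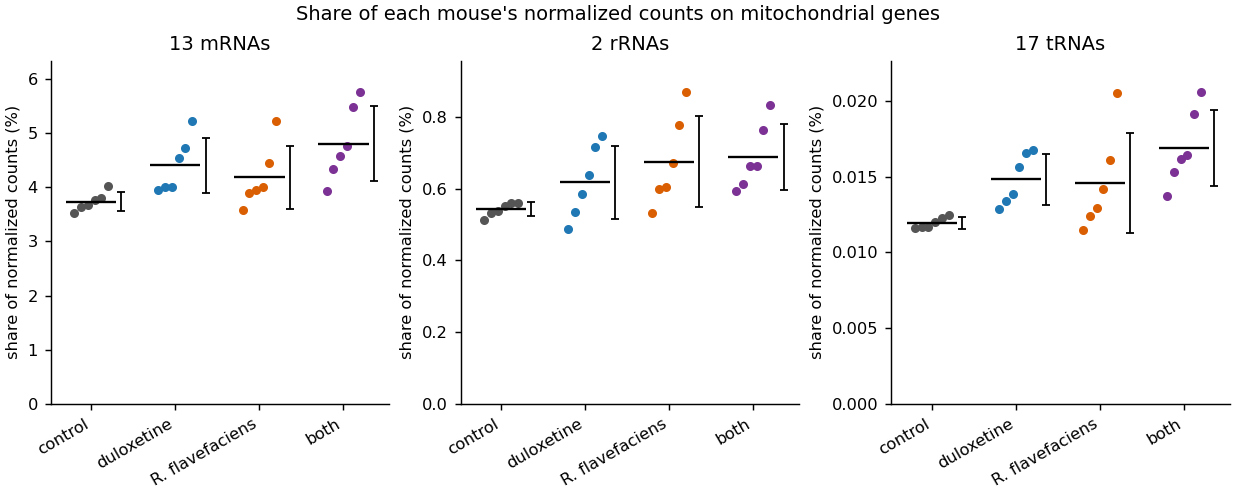
Share of normalized counts in percent on the 13 mRNAs, 2 rRNAs and 17 tRNAs of the mitochondrial genome, 1 point per mouse, with the group mean as a line and the SD as a bar. Control mice lie close together, from 3.52% to 4.03% for the mRNAs, and the treated mice reach up to 5.76%.

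The first question was what duloxetine alone did to these RNAs. Every one of the 31 genes tested had a higher mean than in the control, the mRNAs by a log2 difference of 0.19 to 0.30, with a median of 0.25, against a median of -0.0018 over all 14974 genes tested. None passed limma's threshold of an adjusted p under 0.05 and neither did any gene of the table (0%), while 22 of the 31, all 13 mRNAs among them, had an unadjusted p under 0.05 and were higher, as did 2.2% of all genes tested. The mRNAs varied together within groups, with a Pearson correlation of 0.91 for the median pair. Counts of mitochondrial genes, here and below, are therefore not counts of independent genes. On the recovered reads DESeq2 called 0 mitochondrial genes, against 0.00668% of all genes, and edgeR 0, against 0%. In 8 of the 31 all duloxetine mice lay above all controls, against 0.167% of all genes tested. These were the mRNAs *mt-Nd1*, *mt-Nd2*, *mt-Nd5*, *mt-Nd6* and *mt-Atp8* and the tRNAs *mt-Tl1*, *mt-Tm* and *mt-Tl2*. For *mt-Tm* the highest control was at 55.6 and the lowest duloxetine mouse at 55.88. For *mt-Tl2* these were at 11.43 and 11.69, so a single read could close either gap.

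*mt-Tl1*, which reads leucine codons, had the smallest p-value of the mitochondrial genes in this comparison. Its normalized counts ran from 102 to 141 in the control, with a median of 119, and from 147 to 228 with duloxetine, with a median of 172. The groups did not overlap, and the log2 difference was 0.56 (standard error 0.13, limma adjusted p = 0.881, exact permutation test p = 0.00216, the smallest that 6 against 6 mice can give, not adjusted). Groups without overlap always give this smallest p. Since the gene was picked by its values, the permutation test only describes the separation and is no independent test of it. In the *R. flavefaciens* group it ran from 90.0 to 152 and overlapped the control, with a log2 difference of -0.02 (standard error 0.13, limma adjusted p = 0.954). With both treatments it ran from 122 to 222, with 5 of 6 mice above all controls.

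*mt-Nd5*, a proton-pumping subunit of complex I, was also high wherever duloxetine was given. It ran from 36028 to 39890 normalized counts in the control, with a median of 38320, and from 40857 to 52869 with duloxetine, with a median of 44112. With *R. flavefaciens* it ran from 34410 to 40647, with a median of 38540, and with both from 40873 to 60500, with a median of 47284. Thus all mice given duloxetine, with or without the bacterium, lay above all mice not given it. The gap was narrow, from 40647 to 40857, and the share of all genes that separate in this way is not given here. This gene was added after its values were seen.

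Averaged over the presence of the bacterium, with 12 mice given duloxetine against 12 not given it, limma called 8 of the 31 genes, all higher, against 1.03% of all genes tested. They were *mt-Tl1* with a log2 difference of 0.55 (standard error 0.093, limma adjusted p = 0.00497), *mt-Ta* with 0.61 and the mRNAs *mt-Nd4l* with 0.32, *mt-Nd5* with 0.31, *mt-Nd2* with 0.27, *mt-Nd1* with 0.27, *mt-Nd4* with 0.26 and *mt-Atp8* with 0.26. Of the mRNAs not called, *mt-Cytb* was at 0.22 (standard error 0.062, limma adjusted p = 0.0814) and *mt-Co1* at 0.18 (standard error 0.066, limma adjusted p = 0.186). The rRNAs were at 0.06 for *mt-Rnr1* and 0.13 for *mt-Rnr2*. DESeq2 called 12 of the 30 genes it tested, *mt-Cytb* and *mt-Nd6* among them, against 2.16% of all genes it tested, and a difference between the complexes was not tested. In the same comparison the mRNAs had a median of 0.26, or 0.0866 with quantile normalization. That method gives every mouse the same value at each rank of abundance. Since 11 of the 20 most abundant genes were mitochondrial, it can narrow their differences by its construction, here and below. The 9 nuclear-retained RNAs, listed as a sign of nuclear RNA, had a median of 0.27. Of these RNAs, 7 of the 9 were higher at an unadjusted p under 0.05, against 7.44% of all genes tested. Their part in this result was not tested. The call of *mt-Nd1* held under 14 of 36 alternatives, with limma, DESeq2 or edgeR adjusted p-values from 0.00789 to 0.330. That of *mt-Ta* held under 25, *mt-Nd4* under 27, *mt-Atp8* under 29 and *mt-Nd2* under 32. The calls of *mt-Tl1*, *mt-Nd5* and *mt-Nd4l* held under 36 of 36. Without 1 mouse of the *R. flavefaciens* group, 9_3, 14 genes were called, against 0.915% of all genes tested, and without 1 mouse of the combined group, 12_4, 13, against 1.74%. Without 2_1, 3_1, 5_3 or 11_3 there were 3, against 0.307% to 0.401%, and without 6_2, 6_3 or 12_2 there were 4, against 0.528% to 0.695%.

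Among these, *mt-Nd1*, a membrane subunit of complex I, ran from 37392 to 42836 normalized counts in the control, with a median of 39425, and from 43390 to 56875 with duloxetine, with a median of 47002. With *R. flavefaciens* it ran from 37920 to 56949, with a median of 43004, and with both from 42211 to 64857, with a median of 52260 (standard error of the averaged difference 0.066, limma adjusted p = 0.0454). The duloxetine group did not overlap the control, and the other groups did. *mt-Nd2*, also of complex I, ran from 24717 to 28896 in the control, from 29036 to 38566 with duloxetine, from 25440 to 35720 with *R. flavefaciens* and from 28641 to 43623 with both (standard error 0.062, limma adjusted p = 0.0311). *mt-Atp8* ran from 6339 to 7188, 7242 to 9946, 6671 to 8407 and 6970 to 10350 in the same order (standard error 0.059, limma adjusted p = 0.0314). For both genes only the group given duloxetine alone lay above all controls. *mt-Nd4* ran from 45081 to 52741, 49654 to 68421, 44110 to 56639 and 50907 to 72583 (standard error 0.059, limma adjusted p = 0.0316), and all its groups overlapped the control.

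**Figure D2:**
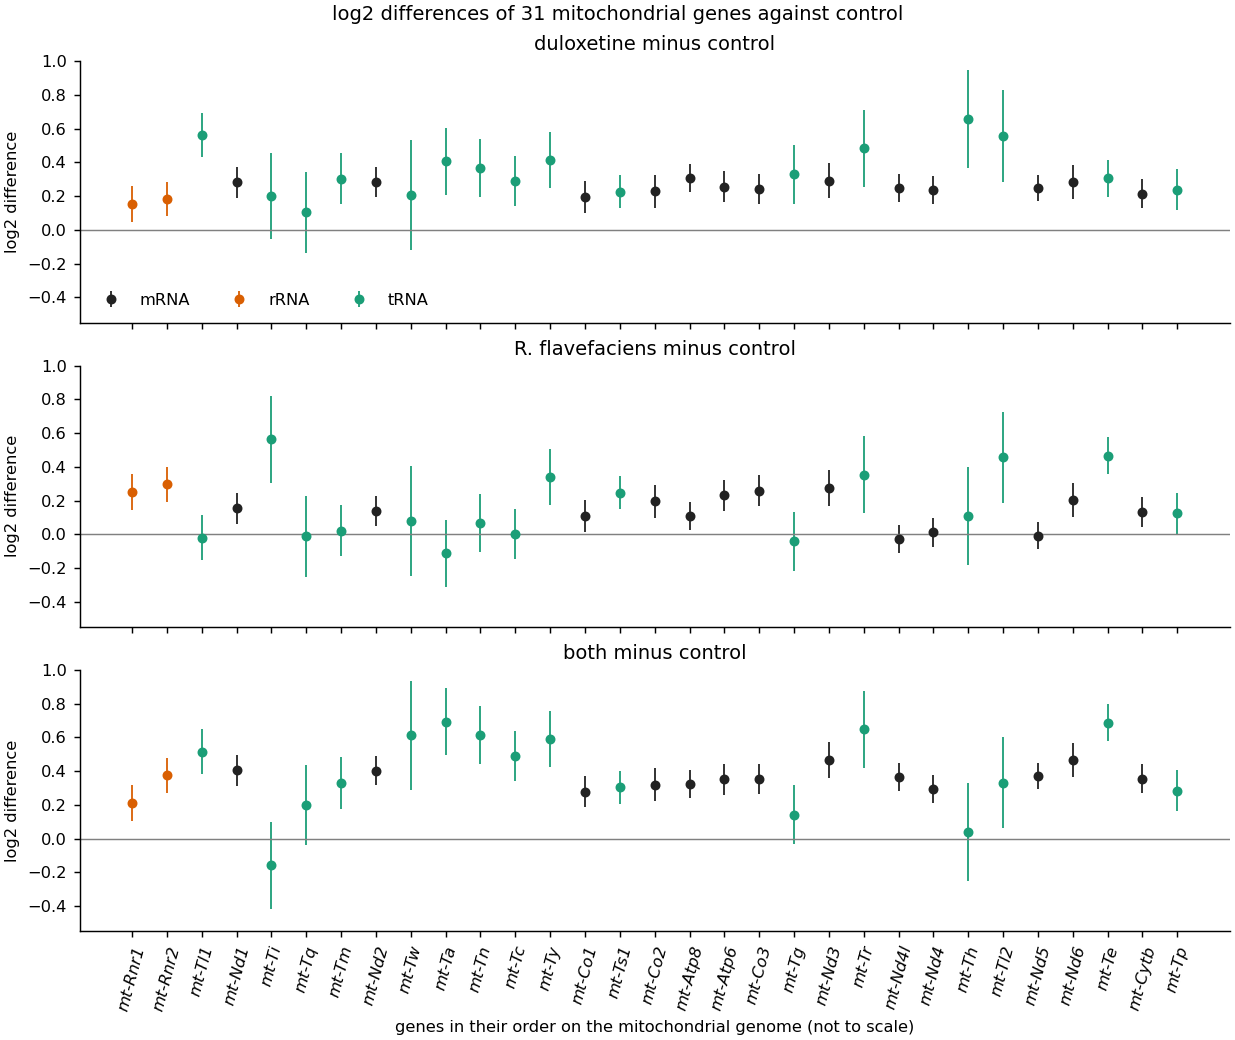
Log2 differences against control for the 31 mitochondrial genes tested, in their order along the genome, with limma's standard error as bars and mRNAs, rRNAs and tRNAs in separate colors. With duloxetine the mRNAs form an even row at 0.19 to 0.30, and with *R. flavefaciens* they spread from -0.03 to 0.27.

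With *R. flavefaciens* alone the picture was less even. The mRNAs had a median log2 difference of 0.14, against 0.0031 over all genes tested, and of 0.08 without mouse 9_3. Limma called none of the 31 mitochondrial genes, against 0.0267% of all genes tested. At an unadjusted p under 0.05, 8 were higher, among them 3 mRNAs, and none was lower, against 8.86% of all genes tested that were higher. edgeR called 0, against 0.0267% of all genes tested, and DESeq2 called 2 of the 17 it tested, *mt-Te* and *mt-Rnr2*, against 5.6% of all genes it tested. In 1 gene, *mt-Te*, all treated mice lay above all controls, against 0.788% of all genes tested. Without mouse 8_3, 9_1 or 9_2 limma called 1 mitochondrial gene each time, against 2.85%, 1.6% and 4.11% of all genes tested.

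The mRNAs differed among themselves in this group. *mt-Nd3* was at 0.27 (standard error 0.11), *mt-Co3* at 0.26 (0.091), *mt-Atp6* at 0.23 (0.092), *mt-Nd6* at 0.20 and *mt-Co2* at 0.20, whereas *mt-Nd4* was at 0.01 (0.084), *mt-Nd5* at -0.01 (0.078) and *mt-Nd4l* at -0.03 (0.083), and the sign of these 3 changed under 5, 7 and 2 of 36 alternatives. Between them lay *mt-Nd1* at 0.15, *mt-Nd2* at 0.14, *mt-Cytb* at 0.13, *mt-Co1* at 0.11 and *mt-Atp8* at 0.11. Part of the values rested on 1 mouse, 9_3, whose mRNA share of 5.23% was the highest of its group, and without it *mt-Nd3* was at 0.19, *mt-Co3* at 0.20 and *mt-Atp6* at 0.17. *mt-Co3* ran from 46864 to 51219 normalized counts in the control, with a median of 47449, and from 49901 to 70850 with *R. flavefaciens*, with a median of 57714, so that 5 of 6 treated mice lay above all controls (exact permutation test, p = 0.00649, not adjusted; limma adjusted p = 0.129). This gene was chosen after its values were seen, so the permutation test describes the separation and is no independent test of it.

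A ratio between mitochondrial RNAs within a mouse hardly depends on the scaling of the library. The log2 ratio of *mt-Nd5* to *mt-Co3* ran from -0.40 to -0.26 in the control, from -0.44 to -0.24 with duloxetine and from -0.42 to -0.24 with both, but from -0.80 to -0.47 with *R. flavefaciens* alone. All 6 mice given only the bacterium lay below the other 18, and the range of those given duloxetine in addition overlapped that of the controls. Of the 105 ratios between the 13 mRNAs and 2 rRNAs, 4 set this group apart from the other 18 mice in the same way, those of *mt-Nd5* to *mt-Co2*, *mt-Atp6*, *mt-Co3* and *mt-Cytb*, while 1 ratio set the duloxetine group apart, 2 the combined group and 0 the control. These ratios were chosen after their values were seen and were not tested. *mt-Nd5* is the longest of the mRNAs (1824 bases), and its partners in the 4 ratios are shorter. The difference of the *R. flavefaciens* group from control fell with length over the table, as given below. The part of length in these ratios was not tested.

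The genes differ in length, and over the table the difference of *R. flavefaciens* from control fell with length, with a Spearman correlation of -0.47 over 14927 genes outside the mitochondrial genome. Over the 13 mRNAs it was -0.35, and for duloxetine it was -0.64 over the mRNAs and -0.18 over the other genes. With a smooth trend on length removed from each mouse, the median of the mRNAs was 0.01 for *R. flavefaciens*, 0.20 for duloxetine and 0.26 for both. With quantile normalization the medians were 0.08, 0.12 and 0.14. The part of length in these results was not otherwise tested.

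The rRNAs were at 0.25 (standard error 0.11) for *mt-Rnr1*, the RNA of the small ribosomal subunit, and at 0.30 (0.10) for *mt-Rnr2*, that of the large subunit, with *R. flavefaciens*, and neither passed (limma adjusted p = 0.186 and 0.124). *mt-Rnr2* ran from 46190 to 50072 normalized counts in the control, with a median of 49580, from 44870 to 66813 with duloxetine, with a median of 55558, from 48305 to 76019 with *R. flavefaciens*, with a median of 59086, and from 55472 to 76879 with both, with a median of 61268. Only the combined group did not overlap the control. Its log2 difference of 0.38 (standard error 0.10) exceeded the 0.21 (0.11) of *mt-Rnr1*, and the log2 ratio of *mt-Rnr2* to *mt-Rnr1*, 0.90 to 1.02 in the combined group, lay above the other 18 mice, of which the highest was at 0.87. This ratio too was chosen after its values were seen.

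**Figure D3:**
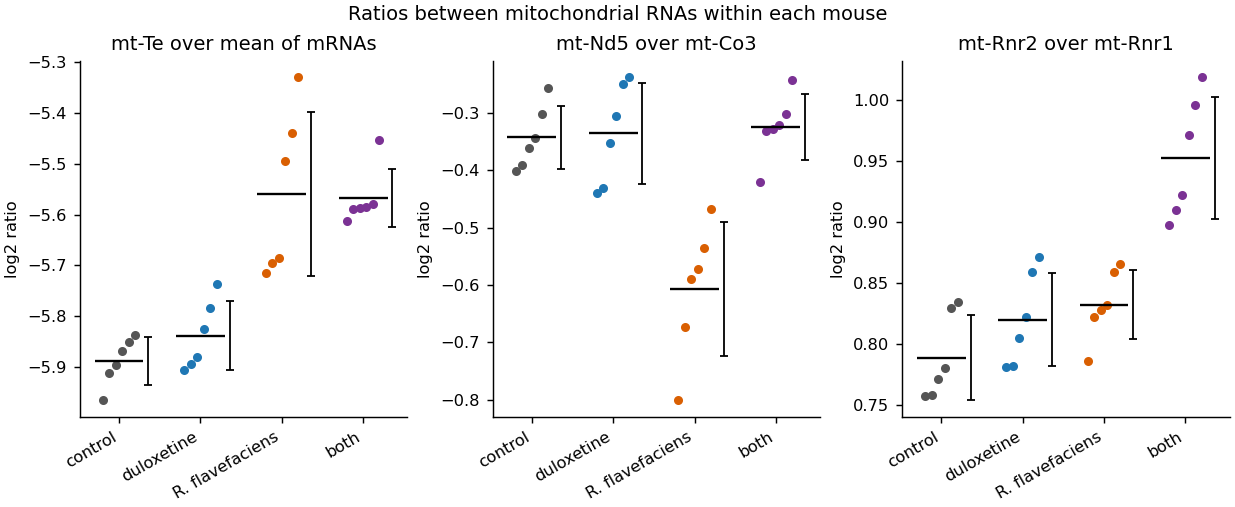
Log2 ratios between mitochondrial RNAs in each mouse, with the group mean as a line and the SD as a bar. *mt-Te* relative to the mean of the mRNAs is higher in both groups given the bacterium, *mt-Nd5* relative to *mt-Co3* is lower with the bacterium alone, and *mt-Rnr2* relative to *mt-Rnr1* is higher with both treatments.

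With both treatments the median differences from control were the largest of the 3 treated groups. The mRNAs were at 0.28 to 0.47, with a median of 0.36, against 0.0007 over all genes tested. Limma called 1 of the 31 genes, *mt-Te*, against 0.1% of all genes tested, and 24 had an unadjusted p under 0.05 and were higher, all 13 mRNAs among them, against 8.08% of all genes tested. DESeq2 called 19 of the 26 it tested, namely 12 mRNAs, *mt-Rnr2* and 6 tRNAs, against 1.68% of all genes it tested, and edgeR called 3, against 0.114%. The limma adjusted p-values of *mt-Nd2*, *mt-Nd5* and *mt-Nd6* were each 0.0519. A fit of only these groups called 16 genes, against 1.31% of all genes tested. Without mouse 12_4 limma called 15, against 1.03%, without 9_3 it called 12, against 0.821%, and without 12_3 it called 5, against 0.287%. Without 5_1, 6_2, 8_4 or 9_2 it called 2, against 0.0801% to 0.154%. In 7 of the 31 all mice of the combined group lay above all controls, against 0.882% of all genes tested. They were *mt-Nd3*, *mt-Nd4l*, *mt-Nd5*, *mt-Nd6*, *mt-Rnr2*, *mt-Ts1* and *mt-Te*.

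*mt-Nd3*, a small subunit of complex I and the lowest mRNA per kilobase, ran from 4714 to 5299 normalized counts in the control, with a median of 5138, and from 5670 to 8687 with both, with a median of 7057. It ran from 5073 to 7379 with duloxetine, with a median of 6508, and from 5167 to 8264 with *R. flavefaciens*, with a median of 6115, so that only the combined group did not overlap the control (log2 difference 0.46, standard error 0.11, limma adjusted p = 0.0574). *mt-Co1*, the highest, ran from 132596 to 161340 in the control, with a median of 146424, and from 152110 to 214940 with both, with a median of 171549. With duloxetine it ran from 148385 to 200369, with a median of 162776, and with *R. flavefaciens* from 137110 to 192395, with a median of 154566. All its groups overlapped the control, and its difference of 0.28 with both was the smallest of the mRNAs (standard error 0.094, limma adjusted p = 0.156).

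*mt-Te*, the tRNA for glutamate whose sequence is given above, had a different pattern. It ran from 429 to 504 normalized counts in the control, with a median of 454, from 497 to 645 with duloxetine, with a median of 569, from 506 to 906 with *R. flavefaciens*, with a median of 616, and from 602 to 977 with both, with a median of 703. All mice of both groups given the bacterium lay above all controls, and 5 of 6 given duloxetine alone did. The log2 difference from control was 0.69 with both (standard error 0.11, limma adjusted p = 0.00605, exact permutation test p = 0.00216, not adjusted and fixed by the lack of overlap), 0.46 with *R. flavefaciens* (standard error 0.11, limma adjusted p = 0.0727) and 0.30 with duloxetine (standard error 0.11, limma adjusted p = 1.00). The call with both held under all 36 alternatives, with limma, DESeq2 or edgeR adjusted p-values from 7.42e-06 to 0.0320. Mouse 9_3 was highest of its group, and without it the difference for *R. flavefaciens* was 0.36 (limma adjusted p = 0.160, over the alternatives 0.0110 to 0.184).

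Averaged over duloxetine, the 12 mice given the bacterium had 0.42 more *mt-Te* on the log2 scale (standard error 0.078, limma adjusted p = 0.0371), and it was the only 1 of 31 mitochondrial genes called, against 0.0267% of all genes tested. This call held under 18 of 36 alternatives, with limma, DESeq2 or edgeR adjusted p-values from 0.000232 to 0.108, and it was lost without any of 15 single mice, namely 1_1, 2_1, 2_2, 3_1, 3_3, 5_1, 5_3, 5_4, 6_1, 7_2, 8_4, 10_2, 11_3, 11_4 and 12_2.

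Set against the mean of the 13 mRNAs in the same mouse, *mt-Te* was higher than in the control by 0.33 on the log2 scale (standard error 0.068) with *R. flavefaciens* and by 0.32 (0.030) with both, and by 0.05 with duloxetine. The ratio ran from -5.97 to -5.84 in the control, from -5.91 to -5.74 with duloxetine, from -5.71 to -5.33 with *R. flavefaciens* and from -5.61 to -5.45 with both, so the groups given the bacterium did not overlap the control. Against its neighbour *mt-Nd6* on the same strand, the log2 ratio ran from -4.68 to -4.51 in the control, from -4.64 to -4.40 with duloxetine, from -4.38 to -4.24 with *R. flavefaciens* and from -4.39 to -4.23 with both. The 12 mice given the bacterium lay above the 12 not given it in this ratio too, which was chosen after its values were seen.

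**Figure D4:**
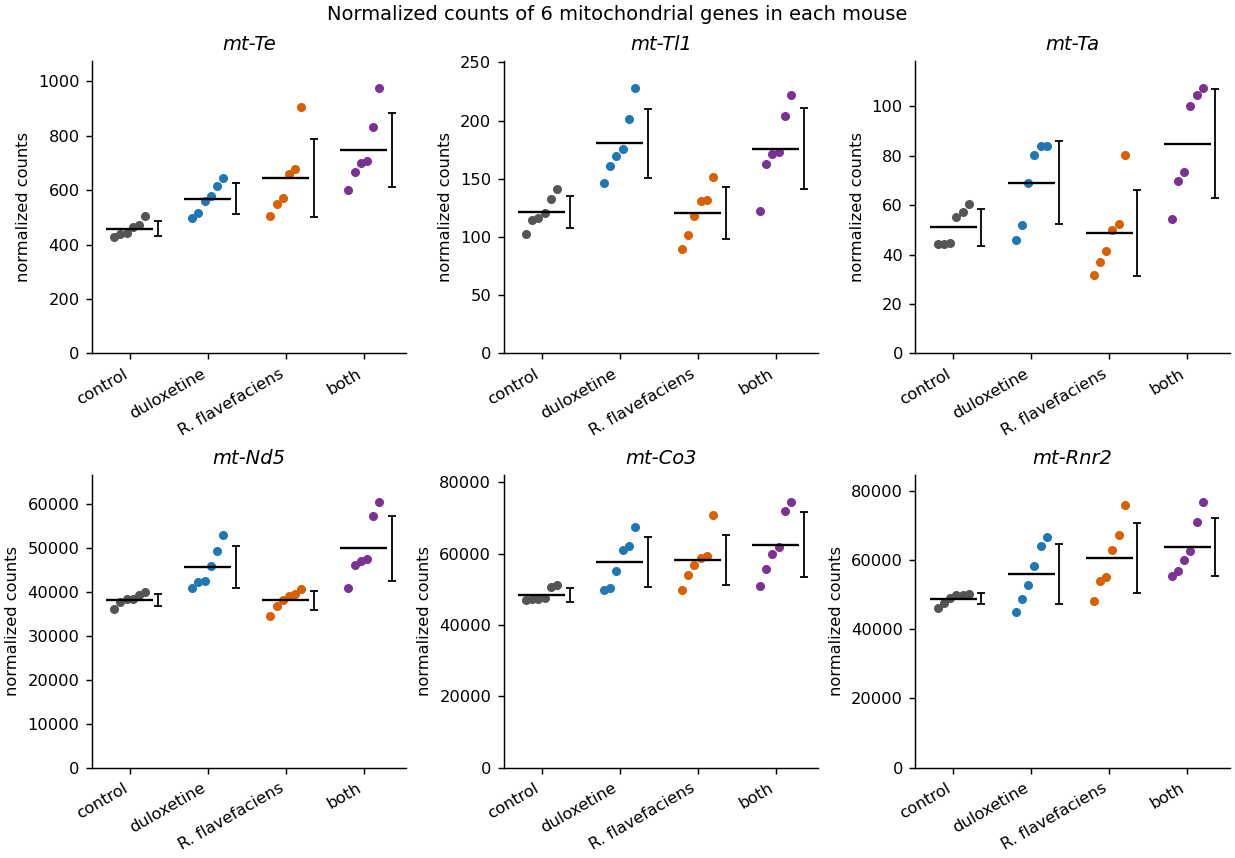
Normalized counts of 6 mitochondrial genes, 1 point per mouse, with the group mean as a line and the SD as a bar. *mt-Te* is above all controls in both groups given the bacterium, and *mt-Nd5* is at 40857 or above in all mice given duloxetine.

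Adding duloxetine to the bacterium was compared directly. Limma called 4 of the 31 genes higher with both than with *R. flavefaciens* alone, against 2.23% of all genes tested. They were *mt-Nd4l* at 0.40 (standard error 0.083, limma adjusted p = 0.0171), *mt-Nd5* at 0.38 (0.078, the same adjusted p), *mt-Ta* at 0.81 (0.20, limma adjusted p = 0.0310) and *mt-Tl1* at 0.54 (0.13, limma adjusted p = 0.0313). DESeq2 called 8 of 31, against 4.07% of all genes it tested. The calls of *mt-Nd4l* and *mt-Nd5* held under 34 of 36 alternatives, that of *mt-Ta* under 31 and that of *mt-Tl1* under 29. Without 11_3 there were 0 calls, against 0.314% of all genes tested, and a fit of only these groups called 0, against 0%. Without 10_2 or 12_2 there were 2, against 1.87% and 1.06%, and without 9_3 or 12_4 there were 7, against 1.19% and 3.17%.

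*mt-Nd4l*, another complex I subunit, ran from 5485 to 6895 normalized counts with *R. flavefaciens*, with a median of 6553, and from 6987 to 10242 with both, with a median of 8054, without overlap. The control ran from 6106 to 6978, with a median of 6505, and the duloxetine group from 6788 to 9428. *mt-Ta*, for alanine, ran from 31.6 to 80.4 with *R. flavefaciens*, with a median of 45.7, and from 54.4 to 107 with both, with a median of 86.8, and these groups overlapped. In the control it ran from 44.2 to 60.4, and with duloxetine from 45.8 to 83.8, with a median of 74.7. Its neighbours on the minus strand, *mt-Tn* at 0.55 (limma adjusted p = 0.0807) and *mt-Tc* at 0.49 (limma adjusted p = 0.0741), did not pass with limma. DESeq2 called these neighbours. In this comparison the mRNAs had a median of 0.22 (0.09 with quantile normalization). The 9 nuclear-retained RNAs had one of 0.37 (0.22 with the length trend removed). Of these RNAs, 4 of 9 were higher at an unadjusted p under 0.05, against 9.76% of all genes tested. Their part in the result was not tested.

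Adding the bacterium to duloxetine gave 0 calls among the 31 genes with limma, DESeq2 and edgeR, against 0% of all genes with limma and edgeR and 0.00668% with DESeq2, and 2 had an unadjusted p under 0.05, 1 higher and 1 lower, against 5.9% of all genes tested. The mRNAs were at 0.02 to 0.19, with a median of 0.12, which was 0.06 without mouse 12_2, 0.07 without 11_3 or with the length trend removed and 0.03 with quantile normalization. The interaction gave 0 calls with the same tools, against 0% with each, and 1 unadjusted p under 0.05, against 7.53% of all genes tested. The median of the mRNAs was -0.02, with 1 mouse left out it ran from -0.08 (without 12_2) to 0.04 (without 9_3) and was above 0 also without 6_2, 12_3 or 12_4, with the length trend removed it was 0.07, and for no gene did the duloxetine difference with the bacterium and without it differ past the threshold. The comparisons above share control mice or treated mice and are not independent of each other.

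The nuclear genes of the same complexes were set beside the mitochondrial mRNAs. With duloxetine the 70 subunits of complexes I, III, IV and V had a median log2 difference of 0.03 against the 0.25 of the mitochondrial mRNAs, and 2 of 70 were higher at an unadjusted p under 0.05, against 2.2% of all genes tested. With *R. flavefaciens* they had 0.20 against 0.14, with 54 of 70 higher at that level, against 8.86% of all genes tested. With both they had 0.08 against 0.36, with 18 of 70 higher, against 8.08%, and 2 lower. With the length trend removed, as above, the nuclear medians were 0.01 with duloxetine, 0.07 with *R. flavefaciens* and 0.0002 with both. When duloxetine was added to the bacterium, the nuclear subunits were at -0.11, or -0.07 with the length trend removed, and the mitochondrial mRNAs at 0.22, or 0.09 with quantile normalization. These are different alternatives, so -0.07 and 0.09 cannot be compared with each other. Of the 70, 26 were lower and 0 higher at an unadjusted p under 0.05, against 2944 of 14974 genes in either direction. For the interaction their median was -0.15, or -0.08 with the length trend removed. At that level 19 were lower and 0 higher, against 7.53% of all genes tested in either direction. The difference between these lists was not tested. Limma called 1 of 70 with *R. flavefaciens* and with both, *Cox8a*, a small complex IV subunit, at 0.36 (limma adjusted p = 0.0261) and 0.32 (limma adjusted p = 0.0438), against 0.0267% and 0.1% of all genes tested, and called none with duloxetine.

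**Figure D5:**
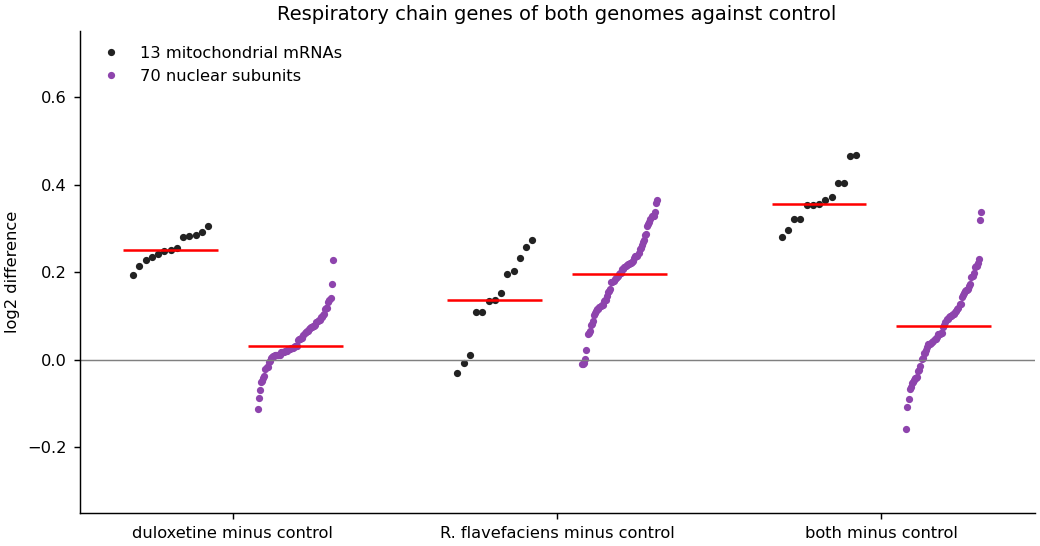
Log2 differences against control of the 13 mitochondrial mRNAs (black) and 70 nuclear subunits of complexes I, III, IV and V (violet), 1 point per gene, with the median as a red line. The mitochondrial median is above the nuclear one with duloxetine (0.25 and 0.03) and with both (0.36 and 0.08), and below it with *R. flavefaciens* (0.14 and 0.20).

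The nuclear genes that make and process mitochondrial RNA had medians near that of all genes. Of 24 genes for mitochondrial transcription and genome upkeep, 26 for RNA processing, stability and decay and 45 for tRNA modification and charging, limma called none against control in any treated group. At an unadjusted p under 0.05 there were 2, 2 and 1 with duloxetine, 4, 5 and 2 with *R. flavefaciens* and 4, 4 and 4 with both, in either direction, against 3.83%, 19.6% and 16.8% of all genes tested. Their medians lay between -0.03 and 0.05. *Polrmt*, the mitochondrial RNA polymerase, was at -0.08, 0.03 and 0.02 with duloxetine, *R. flavefaciens* and both (standard error 0.058), *Tfam*, which packs the genome and starts transcription, at 0.01, 0.10 and 0.05 (0.059), and *Lrpprc*, which stabilizes the mRNAs, at 0.04, -0.08 and -0.08 (0.046). *Ears2*, which charges the glutamate tRNA, was at -0.08, -0.06 and -0.11 (0.11), and had 100 ± 12.2 normalized counts in the control (SD, n = 6) and 93.3 ± 15.6 with both. Of 12 nuclear regulators, with medians of -0.07, -0.03 and -0.07, 3, 2 and 3 had an unadjusted p under 0.05. All of these were lower and 0 were higher, against the same 3.83%, 19.6% and 16.8% of all genes tested in either direction. Among the 12 the coactivator *Ppargc1a* was at 0.01, -0.09 and 0.01 (0.079), and none of the 12 was called. When duloxetine was added to the bacterium, limma called 1 of the 24 and 1 of the 45 genes, against 2.23% of all genes tested, the carrier *Slc25a36* at 0.20 (limma adjusted p = 0.0310) and the elongation factor *Tufm* at -0.20 (limma adjusted p = 0.0444).

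Copies of mitochondrial sequence in the nuclear genome can take reads from the mitochondrion. The pseudogene *Gm28438*, at chr1:24612775-24613119 on GRCm38, was the only one of 7 listed copies in the table. It had 90.5 ± 18.7 normalized counts in the control, 115 ± 19.8 with duloxetine, 95.3 ± 23.5 with *R. flavefaciens* and 109 ± 22.4 with both (SD, n = 6 each), with log2 differences of 0.35, 0.07 and 0.27. With the length trend removed these differences were 0.26, -0.10 and 0.12. The counts of *Gm28438* are small beside those of any mitochondrial mRNA but of the size of tRNAs such as *mt-Tl1* (121 in the control) and *mt-Ta* (51.0), and the part of such copies in the tRNA counts was not tested.

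Some markers of other cells and of nuclear RNA were also higher in some treated groups, but the order of the groups was not always that of the mitochondrial share. Their part in the results was not tested. The 9 nuclear-retained RNAs, of which *Meg3* was the most abundant, summed to 41358 ± 4878 normalized counts in the control, 45733 ± 10886 with duloxetine, 40124 ± 11732 with *R. flavefaciens* and 54494 ± 7742 with both (SD, n = 6 each), with medians of the log2 differences of 0.08, 0.01 and 0.40 and 2, 0 and 6 higher at an unadjusted p under 0.05. With the length trend removed these medians were 0.11, 0.11 and 0.45. The 10 microglia markers, led by *Csf1r*, summed to 5246 ± 330, 5817 ± 600, 6043 ± 534 and 6195 ± 811 in the same order, and 4, 7 and 8 of them were higher at an unadjusted p under 0.05. The 5 blood markers in the table, of 7 listed, led by *Hbb-bs*, summed to 349 ± 65.7, 462 ± 265, 598 ± 204 and 633 ± 351, with 0, 4 and 5 higher at that level. The 10 astrocyte markers, led by *Slc1a2*, summed to 71521 ± 4610, 73787 ± 4206, 70328 ± 6495 and 79707 ± 9588, with medians of the log2 differences of 0.04, 0.15 and 0.16 and 0, 4 and 4 higher at that level. The 10 markers of endothelial cells and pericytes, led by *Rgs5*, summed to 5691 ± 324, 6052 ± 656, 6093 ± 486 and 6493 ± 1000, with 0, 0 and 4 higher. The 8 markers of inhibitory neurons, led by *Gad1*, summed to 11017 ± 505, 11058 ± 410, 12041 ± 421 and 11649 ± 790, with 1, 4 and 2 higher. The shares of all genes tested that were higher at this level were 2.2%, 8.86% and 8.08%. Markers of excitatory neurons summed to 103305 ± 3736, 104428 ± 4409, 104828 ± 6492 and 106965 ± 5970. For 10 oligodendrocyte markers the medians were 0.12, 0.14 and 0.12 with 0 at that level, for 10 striatum markers -0.08, 0.23 and 0.03 with 0, 1 and 0 higher, and for 5 choroid plexus markers 0.07, 0.13 and 0.11 with 0, 1 and 1 higher. The striatum markers summed to 4130 ± 356, 3881 ± 100, 4862 ± 2373 and 4175 ± 956 in the same order. With *R. flavefaciens* the highest mouse was at 9634 and the median was 3802, against a median of 3987 in the control. With both the highest mouse was at 6080. Limma called none of these markers against control.

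Within groups the mRNAs varied together. With group means removed, the Pearson correlation over 24 mice was 0.91 for the median pair of mRNAs, 0.99 for *mt-Atp6* with *mt-Co3* and 0.48 for *mt-Nd3* with *mt-Nd4l*, the lowest. With the mean of the mRNAs, *mt-Te* correlated at 0.91, *mt-Rnr2* at 0.84, *mt-Ts1* at 0.83, *mt-Rnr1* at 0.80 and *mt-Tl1* at 0.65, and *mt-Tm* at 0.20 the least. Outside the mitochondrial genome the 5 genes most like the mean of the mRNAs were *Cldn10* at 0.92, *Rpl26* at 0.92, *Rpsa* at 0.90, *Rpl27a* at 0.89 and *Eef1g* at 0.89. These are descriptions of values that share each mouse's library and size factor.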

How the data were processed

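Poly(A) RNA libraries of 24 mice were sequenced and, per the methods, mapped by the authors with TopHat2 to GRCm38.p5. The submitters' processing notes name TopHat2 2.1.0, Bowtie2 2.2.6, DESeq2 1.18.1 and mm9, but the positions in the table were those of GRCm38 for 14285 of the 15438 genes found in GENCODE vM21. The counting program and filter are not given in the sources used here. The deposited values are signal, gene counts that the authors divided by a DESeq2 size factor per mouse. Of the non-zero values, 99.9946% were whole multiples of 1 step per mouse (tolerance 0.0051), which returned the reads.

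Log2(value + 1) was fitted with limma 3.58.1 (R 4.3.3, intensity trend), using genes averaging 10 normalized counts or more and all 4 groups in 1 fit. Tests were two-sided with Benjamini-Hochberg adjustment over all genes tested. DESeq2 1.42.0 and edgeR 4.0.16 were run on the recovered reads, and exact permutation tests used all 924 groupings of 12 mice. Alternatives were a pseudocount of 0.1, no filter, a mean of 50, a fit without the groups not compared, quantile normalization, scaling by the 75th percentile, the nuclear total or the total, a random block by first label number, removal of a length trend, an adjusted p under 0.1 and leaving out each mouse. The fits were checked on simulated data. Every mitochondrial gene was named by rule, with full values for called genes and the extremes per kilobase, and *mt-Nd5*, *mt-Co3* and *mt-Rnr2* were added after their values were seen. The members, lists and tests were chosen with earlier results of these data known. The methods state that mice were housed in groups, but the labels name no cage. The first label number may be a cage, which is not stated, and no mice of different groups share it. An effect of cage could then not be told apart from treatment, so p-values measure the spread between these mice.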

Additional observations from a re-analysis of the deposited data

Results flagged for a closer look

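In groups of 6, a mouse is named here where its gap to the nearest other mouse, as a share of the group's range, exceeded Dixon's 95% critical value. Of 140 combinations of gene or share and group, 5 did so, and chance gives about 1 in 20. In the *R. flavefaciens* group, mouse 9_3 had 56949 normalized counts of *mt-Nd1* (the next 44100.0) and 17688 of *mt-Nd6* (the next 13183), both high, and mouse 9_2 had 5.81 of *mt-Tl2* (the next 13.7). In the duloxetine group, mouse 5_4 had 37.2 of *mt-Ty* (the next 43.1), and in the control, mouse 2_2 had 128 of *mt-Tp* (the next 159), all low.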

How the results depend on the processing

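The number of mitochondrial genes called is given here with the share of all genes tested that the same setting called in parentheses. In *R. flavefaciens* against control, 0 as reported, it was 1 with a random block by first label number (1.48%), 2 with DESeq2 (5.6%) and 1 at an adjusted p under 0.1 (3.87%). For both treatments against control, 1 as reported, it was 4 with a minimum mean of 50 (0.251%), 16 with only the groups compared (1.31%), 3 with quantile normalization (0.12%), 4 with 75th percentile rescaling (0.154%), 7 with the block (0.394%), 19 with DESeq2 (1.68%), 3 with edgeR (0.114%), 6 with the length trend removed (0.421%) and 12 at an adjusted p under 0.1 (0.841%). For both against duloxetine, 0 as reported, it was 1 with the length trend removed (0.00669%). For both against *R. flavefaciens*, 4 as reported, it was 0 with only the groups compared (0%), 8 with DESeq2 (4.07%), 9 with the length trend removed (1.87%) and 8 at an adjusted p under 0.1 (5.62%). For duloxetine averaged over the bacterium, 8 as reported, it was 13 at an adjusted p under 0.1 (2.5%). For the bacterium averaged over duloxetine, 1 as reported, it was 0 with quantile normalization (0.0134%), 75th percentile rescaling (0.02%) and rescaling to the nuclear total (0.0134%) and 2 with DESeq2 (4.51%). With 1 mouse left out the counts ran from 0 to 1 for *R. flavefaciens* (0% to 4.11%), 1 to 15 for both (0.0334% to 1.03%), 0 to 7 for both against *R. flavefaciens* (0.314% to 3.85%), 3 to 14 for duloxetine averaged (0.307% to 1.74%) and 0 to 1 for the bacterium averaged (0.00668% to 0.902%). The cause was not tested, except that fits of fewer groups use fewer mice.

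The median log2 difference of the mRNAs fell with quantile normalization, from 0.25 to 0.12 for duloxetine, from 0.14 to 0.08 for *R. flavefaciens*, from 0.36 to 0.14 for both, from 0.12 to 0.03 for both against duloxetine, from 0.22 to 0.09 for both against *R. flavefaciens*, from 0.26 to 0.0866 for duloxetine averaged over the bacterium and from 0.14 to 0.06 for the bacterium averaged over duloxetine. For *R. flavefaciens* it was 0.01 with the length trend removed and 0.08 to 0.18 with 1 mouse left out, and for both against duloxetine 0.06 to 0.17. With quantile normalization *mt-Cytb* was at -0.0155 for duloxetine against control, and *mt-Co1*, which held the highest value in the table, was at 0, since it gives the same highest value to every mouse. It fixes the value at every other rank too, so smaller differences of such abundant genes can be built into it. Of the 31 genes tested, the sign of the difference from control changed under at least 1 alternative for 6 with duloxetine, 14 with *R. flavefaciens* and 4 with both. No paired analysis was possible because the labels give no mice of different groups the same number. The mice with the same first label number had a consensus correlation of -0.0451. Depth limits the tRNAs with means near 10 normalized counts, where single counts change a difference.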
